A study of Mus musculus with 4 samples.

Results

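The genes described here encode the constitutive proteasome, the large protease of the cytosol and nucleus that degrades proteins tagged with ubiquitin. They were chosen by a rule on names, though with earlier results of these data known. The rule took genes whose symbol starts with Psma, Psmb, Psmc or Psmd and a number, and Psme1 to Psme4. It left out the immune and thymus-specific subunits Psmb8, Psmb9, Psmb10 and Psmb11. This gave 39 of the 18193 genes that the arrays name, measured by 85 probe sets, and each gene was represented by the probe set with the highest mean signal over the arrays. They comprised 14 core particle subunits (7 alpha and 7 beta), 17 regulatory particle subunits (6 ATPases and 11 non-ATPases), 3 chaperones that assemble the base of the regulatory particle, 3 activators, the germ-line alpha subunit gene Psma8, and Psmc3ip. Psmc3ip meets the naming rule by its letters but encodes a partner of the meiotic recombinases, not a subunit, and is kept apart. No probe set carried Psme2 as its single symbol, so this activator gene was not analysed here.

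The samples were total thymocytes, unsorted cells of the thymus, from 2 Atg16l1 hypomorph mice and 2 control mice. Each mouse was 7 weeks old and was measured on 1 Affymetrix array. A hypomorphic allele leaves a gene with reduced function; the hypomorphs carry such an allele of Atg16l1, whose product helps attach ubiquitin-like proteins to the growing autophagosome membrane. The description calls the controls wild type, and neither the strain nor the way the allele was made is given in the sources used here. Each group held 1 male and 1 female, not assigned to arrays. Centred log2 signals of Atg16l1 were 6.31 and 6.16 in hypomorphs and 7.93 and 8.04 in controls, a log2 change of -1.75 ± 0.16 (SE, adjusted p 0.0220 in limma). Median deposited signals were 38.4 and 27.4 in hypomorphs and 23.5 and 27.4 in controls, so each array was centred on the median of its tested probe sets. Without centring the median gene stood 0.54 higher in hypomorphs on the log2 scale. Of 12 thymocyte markers 11 were measured and all 11 passed the filter on dim probe sets, with 4 above and 7 below a change of 0 and a median log2 change of -0.04. Their summed centred signal was 32927 and 35790 in hypomorphs and 36259 and 40065 in controls.

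The core particle is a barrel of alpha and beta rings. Within it Psmb6, Psmb7 and Psmb5 carry the caspase-like, trypsin-like and chymotrypsin-like activities, and the alpha rings gate the entry to the barrel. The regulatory particle caps the barrel: its ATPases unfold substrates, and its non-ATPase subunits bind ubiquitin chains and, through Psmd14, cut them off. Autophagy and the proteasome are the main routes of protein degradation in mammalian cells, and the proteasome also makes peptides for MHC class I. The transcription of subunit genes is known to be raised together by the factor NRF1 (Nfe2l1) when proteasome activity is limiting, through antioxidant response elements in their promoters.

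Promoters are shown for the pair of members with the highest log2 change and the pair with the lowest among the members named below, as the ends of the range that the members spanned. Each is the RefSeq window (GRCm38.p6) of 250 bases before the annotated start, 5′ to 3′ on the gene's own strand, with motif matches in capitals. They lie at chr11:101095436-101095685 (minus strand) for Psmc3ip, chr11:101315963-101316212 (plus strand) for Psme3, chr14:14120946-14121195 (minus strand) for Psmd6 and chr11:30771525-30771774 (plus strand) for Psme4.
Psmc3ip: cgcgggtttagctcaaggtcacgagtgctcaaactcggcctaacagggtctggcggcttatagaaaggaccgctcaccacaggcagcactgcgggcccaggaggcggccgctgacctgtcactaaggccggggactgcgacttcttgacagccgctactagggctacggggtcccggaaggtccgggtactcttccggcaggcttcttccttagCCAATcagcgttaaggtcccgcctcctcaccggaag
Psme3: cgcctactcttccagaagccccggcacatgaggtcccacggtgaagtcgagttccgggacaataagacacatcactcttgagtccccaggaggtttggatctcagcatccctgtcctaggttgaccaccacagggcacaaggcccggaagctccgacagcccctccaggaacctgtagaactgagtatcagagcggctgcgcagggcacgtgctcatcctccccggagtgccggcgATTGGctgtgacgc
Psmd6: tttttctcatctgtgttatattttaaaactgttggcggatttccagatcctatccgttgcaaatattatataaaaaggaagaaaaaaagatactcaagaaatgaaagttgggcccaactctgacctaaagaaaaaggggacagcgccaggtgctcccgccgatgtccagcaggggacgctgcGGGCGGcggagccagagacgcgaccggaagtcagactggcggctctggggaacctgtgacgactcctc
Psme4: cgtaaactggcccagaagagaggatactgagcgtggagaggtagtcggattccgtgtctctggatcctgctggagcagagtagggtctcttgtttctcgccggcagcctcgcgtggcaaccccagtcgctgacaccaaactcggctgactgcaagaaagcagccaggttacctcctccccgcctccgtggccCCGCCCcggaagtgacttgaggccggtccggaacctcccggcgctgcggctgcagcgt

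The capitals mark CCAAT, the box bound by NF-Y, in Psmc3ip and, read on the other strand, in Psme3. They mark GGGCGG, the GC box, in Psmd6 and, read on the other strand, in Psme4. Windows were found for 32 of the 39 genes (34 windows, as 2 genes have a pair of starts), and both strands were searched. The antioxidant response element core TGACNNNGC was present in 5 of 34 windows (14.7%), those of Psmb5, Psmb6, Psmc6, Psmd9 and Psmd12, and in 10.2% of all 32851 windows. CCAAT was present in 13 member windows (38.2%, against 33.8% of all), GGGCGG in 19 (55.9%, against 32.7%) and the AP-1 site TGACTCA, which can overlap the antioxidant response element core, in 1 (2.94%, against 4.46%). A match is a run of letters and not evidence of binding.

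The proteasome genes differed little between hypomorph and control thymocytes. Of the 38 members that passed the filter, limma called none at an adjusted p under 0.05, where it called 3 of 10242 tested genes (0.0293%), and the smallest adjusted p among the members was 0.593. At an unadjusted p under 0.05, 2 members were higher (Psme3 and Psmc3ip) and 0 were lower, against 4.41% and 2.41% of all tested genes. The 2 higher members are 5.26% of the 38, close to that background. Neither Psme3 nor Psmc3ip is a subunit of the core or the regulatory particle. With the mean of a gene's tested probe sets 4 of 38 were higher (10.5%, against 4.13% of genes). With the brightest plain _at probe set per gene, an alternative chosen after seeing the data, 5 of 32 were higher (15.6%, against 4.30%). The core subunit Psma7 (log2 change 0.29) and the ATPase Psmc4 (0.30) were among these 5. Psma8, a subunit of the testis proteasome, was the member that did not pass the filter: its deposited signals were 1.35 and 1.54 in hypomorphs and 4.35 and 1.66 in controls, all near the pseudocount of 2.29.

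**Figure D1:**
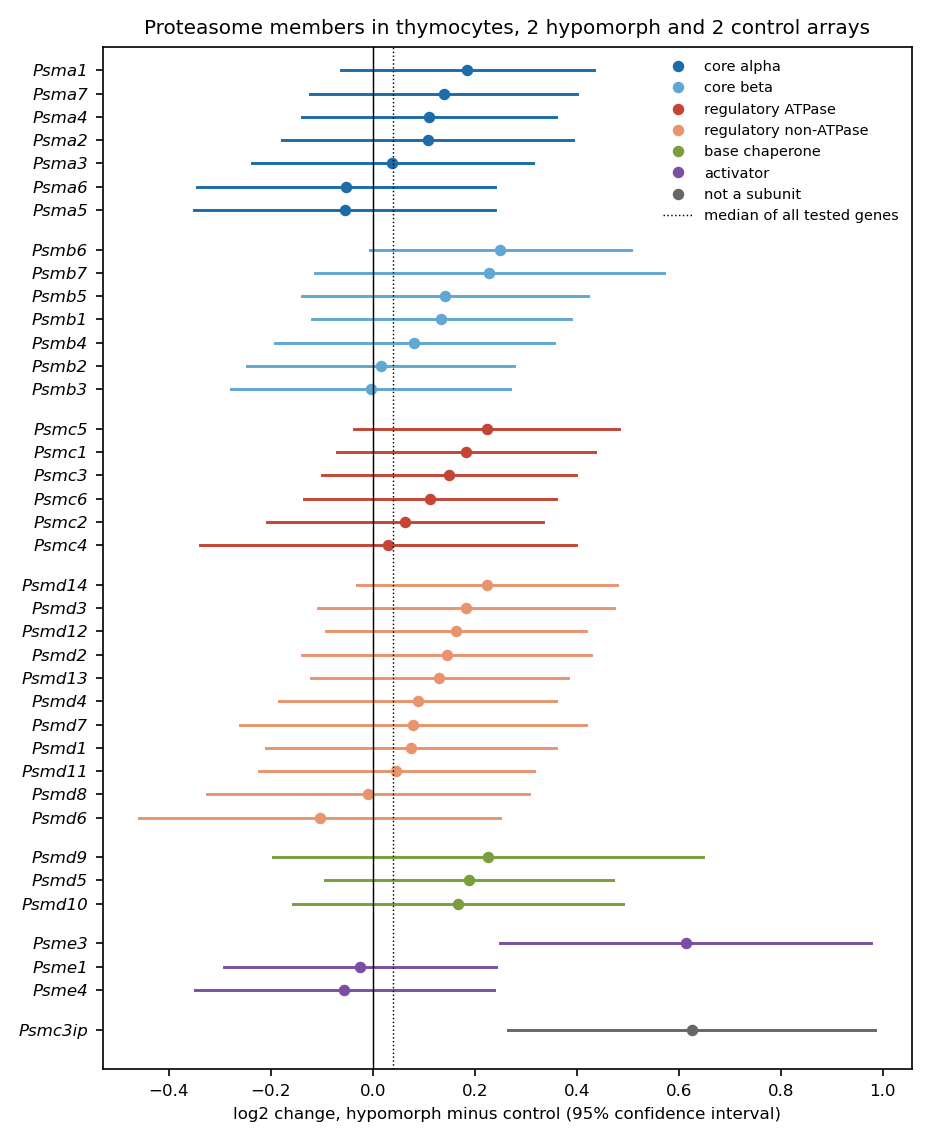
Log2 change, hypomorph minus control, of the 38 tested proteasome members (points) with 95% confidence intervals from limma (lines), by class. The intervals of all 31 core and regulatory particle subunits include 0, and those of Psme3 and Psmc3ip do not; the dotted line marks the median of all tested genes, 0.04.

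The small differences that were measured lay mostly on the higher side. The log2 change was above 0 in 31 of 38 members (81.6%), against 58.3% of tested genes and 63.4% of the 2561 brightest of them. The median of the members was 0.12, against 0.04 for all tested genes and 0.05 for the 2561 brightest. The middle part of the members, between the 25th and 75th percentile, ran from 0.04 to 0.18, while that of all tested genes ran from -0.10 to 0.16. In 17 members (44.7%) both hypomorph arrays were above both control arrays, against 24.2% of tested genes and 29.4% of the 2561 brightest. In 0 of 38 members were both hypomorph arrays lower, against 14.3% of tested genes and 10.5% of the 2561 brightest. This count holds for the brightest probe set of each gene. Some dimmer tested probe sets of Psma1, Psmb1 and Psmd13 had both hypomorph arrays lower, while others, such as those of Psma5 and Psmc4, had both higher. The members are measured on the same 4 arrays and are not independent, and no test of the group was made.

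Seen by array, the average member stood 0.07 and 0.06 above its own mean over the 4 arrays in hypomorphs and -0.08 and -0.05 from it in controls. The averages of the groups did not overlap. The lowest value of a member fell on hypomorph replicate 1 in 9 members and hypomorph replicate 2 in 2, against control replicate 1 in 19 and control replicate 2 in 8. Control replicate 1 was also the lowest array for 34.2% of all tested genes and for 40.1% of the 2561 brightest.

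**Figure D2:**
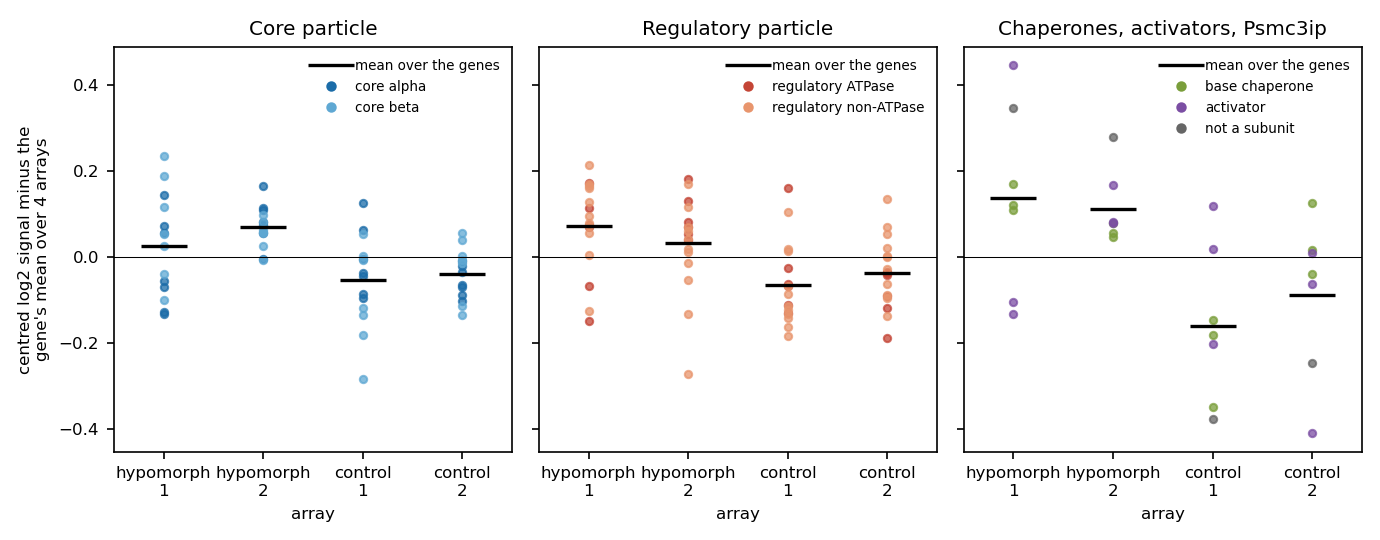
Centred log2 signal of each tested member minus its mean over the 4 arrays (points, coloured by class), on the 2 hypomorph and 2 control arrays, with the mean over the genes as a black bar. The bars of the hypomorph arrays lie above those of the control arrays in each panel while single genes overlap widely.

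**Figure D3:**
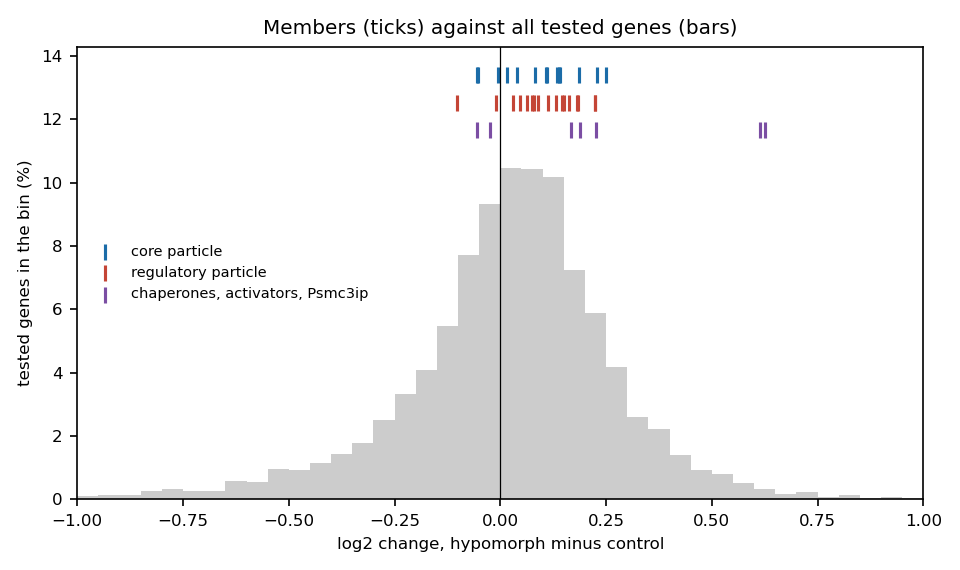
Share of the 10242 tested genes per bin of log2 change, hypomorph minus control (grey bars, from -1 to 1 with 104 genes outside), with the members as ticks. Core and regulatory particle subunits lie between -0.10 and 0.25, and Psme3 and Psmc3ip lie at 0.61 and 0.63.

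The core and the regulatory particle did not differ from each other in these arrays by more than the replicates did. The median log2 change was 0.11 in the 14 core subunits and 0.11 in the 17 regulatory subunits, a difference of -0.0031. The mean centred log2 signal of the core probe sets minus that of the regulatory ones was 0.70 and 0.79 in hypomorphs and 0.76 and 0.75 in controls; its level depends on the probes, and the groups overlapped. Over all 31 subunits the 95% confidence intervals stayed between -0.46 and 0.57, that is between 0.728-fold and 1.49-fold of the control level. Single intervals were narrower than this range, with a median half-width of 0.27 on the log2 scale.

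In the alpha rings 5 of 7 genes were above 0, and the median change was 0.11. By the brightest probe sets Psma1 was highest, with centred log2 signals of 10.57 and 10.61 in hypomorphs and 10.40 and 10.41 in controls. Both hypomorph arrays were above both controls, with a log2 change of 0.19 ± 0.11 (SE, adjusted p 0.717). Psma5 was lowest, at 10.54 and 10.75 in hypomorphs and 10.80 and 10.60 in controls. Here each group held 1 lower and 1 higher array and the groups overlapped (log2 change -0.05 ± 0.13 SE, adjusted p 0.937). Both places depended on the probe set. Dimmer tested probe sets of Psma1 were at -0.24 and -0.26, with both hypomorph arrays below both controls. The next brightest probe set of Psma5 was at 0.19, with both hypomorph arrays above both controls.

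In the beta rings 6 of 7 genes were above 0, with changes of 0.14 to 0.25 in the 3 catalytic subunits and -0.00 to 0.13 in the other 4. Psmb6, the caspase-like subunit, had centred log2 signals of 10.14 and 10.02 in hypomorphs and 9.82 and 9.84 in controls. The groups did not overlap, and the log2 change was 0.25 ± 0.11 (SE), or 1.19-fold, with an unadjusted p of 0.0537 and an adjusted p of 0.673 in limma. Psmb7, the trypsin-like subunit, had 11.02 and 10.78 in hypomorphs and 10.50 and 10.84 in controls. Control replicate 1 was low and the other 3 arrays overlapped (log2 change 0.23 ± 0.15 SE, adjusted p 0.737). Psmb5, the chymotrypsin-like subunit and main target of proteasome inhibitors, had 9.81 and 9.72 in hypomorphs and 9.52 and 9.74 in controls (log2 change 0.14 ± 0.12 SE, adjusted p 0.790). All 3 catalytic subunits were lowest on control replicate 1. Without that array the log2 change was 0.24 for Psmb6, 0.0587 for Psmb7 and 0.0316 for Psmb5, and Psmb7 and Psmb5 then lay below the structural subunits Psmb4 (0.18) and Psmb1 (0.0817). Psmb3, a structural beta subunit and the lowest of the ring, had 10.64 and 10.84 in hypomorphs and 10.75 and 10.75 in controls, so that both control arrays lay between the hypomorph arrays.

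All 6 ATPases of the regulatory particle were above 0, with a median of 0.13 and a range of 0.03 to 0.22, and in 4 of them (66.7%, against 24.2% of all tested genes) both hypomorph arrays were above both controls. Psmc5 was highest, with centred log2 signals of 9.48 and 9.36 in hypomorphs and 9.18 and 9.22 in controls (log2 change 0.22 ± 0.11 SE, adjusted p 0.695). Psmc1 had 9.48 and 9.43 in hypomorphs and 9.30 and 9.25 in controls (log2 change 0.18 ± 0.11 SE, adjusted p 0.722). Psmc4 was lowest and varied most within the groups, at 10.69 and 11.02 in hypomorphs and 10.996 and 10.65 in controls (log2 change 0.03 ± 0.16 SE, adjusted p 0.978).

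Of the 11 non-ATPase subunits 9 were above 0, with a median of 0.09. Psmd14, the deubiquitinase of the lid, had centred log2 signals of 10.16 and 10.28 in hypomorphs and 10.02 and 9.97 in controls. Its groups did not overlap (log2 change 0.22 ± 0.11 SE, unadjusted p 0.0774, adjusted p 0.694). Psmd6, another lid subunit, was lowest of all tested members, at 10.46 and 10.02 in hypomorphs and 10.39 and 10.29 in controls. Hypomorph replicate 2 alone was low, and the hypomorph arrays spanned the controls (log2 change -0.10 ± 0.15 SE, adjusted p 0.890).

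The chaperones Psmd5, Psmd9 and Psmd10 hold the ATPases while the base of the regulatory particle forms and then leave it. All 3 were above 0, at 0.17 to 0.23, and all 3 were lowest on control replicate 1. Psmd5 had centred log2 signals of 8.50 and 8.47 in hypomorphs and 8.24 and 8.35 in controls, without overlap (log2 change 0.19 ± 0.12 SE, adjusted p 0.736). Psmd10, known as the oncoprotein gankyrin, had 7.98 and 7.91 in hypomorphs and 7.68 and 7.88 in controls, also without overlap (log2 change 0.17 ± 0.14 SE, adjusted p 0.787). Without control replicate 1 the log2 change of Psmd10 was 0.0692 and that of Psmd5 was 0.13. Psmd9 had 7.75 and 7.63 in hypomorphs and 7.22 and 7.70 in controls, and without control replicate 1 its log2 change was -0.01 in place of 0.23.

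Activators bind the ends of the core particle in place of the regulatory particle. Psme3 encodes REG gamma, the nuclear activator that lets the core degrade some proteins without ubiquitin. It had centred log2 signals of 8.21 and 7.93 in hypomorphs and 7.56 and 7.35 in controls. Both hypomorph arrays were above both controls, and the means were 8.07 ± 0.20 in hypomorphs and 7.46 ± 0.15 in controls (SD, n = 2 each). The log2 change was 0.61 ± 0.16 (SE; 95% confidence interval 0.25 to 0.98), or 1.53-fold, with an unadjusted p of 0.00448 and an adjusted p of 0.593 in limma, so it did not pass. It ranked 82nd of the tested genes by p-value. A dimmer tested probe set of Psme3 was at 0.18 ± 0.14 (SE, adjusted p 0.772), also with both hypomorph arrays higher. Another probe set of Psme3 was too dim to test and went the other way. Its deposited signals were 2.14 and 2.58 in hypomorphs and 10.9 and 23.3 in controls.

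Psme1 encodes a subunit of the interferon-inducible activator that favours peptides for MHC class I. Its centred log2 signals were 10.19 and 10.38 in hypomorphs and 10.31 and 10.30 in controls, with the controls between the hypomorph arrays (log2 change -0.03 ± 0.12 SE, adjusted p 0.973). Psme4, an activator linked to histone degradation, had 9.37 and 9.58 in hypomorphs and 9.62 and 9.44 in controls (log2 change -0.06 ± 0.13 SE, adjusted p 0.935). Its 6 tested probe sets ran from -0.07 to 0.35, the highest being the next brightest of the 6 (0.35 ± 0.12 SE, unadjusted p 0.0192, adjusted p 0.668).

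Psmc3ip, which encodes the recombinase partner HOP2 and was included by its symbol alone, had centred log2 signals of 7.57 and 7.51 in hypomorphs and 6.85 and 6.98 in controls. The arrays within a group lay closer together than the groups did. The log2 change was 0.63 ± 0.16 (SE; 95% confidence interval 0.27 to 0.99), or 1.54-fold, with an unadjusted p of 0.00375 and an adjusted p of 0.593. Its other probe set was at 0.34 ± 0.17 (SE, adjusted p 0.695). By the brightest probe set of each gene, no member other than Psmc3ip and Psme3 had an unadjusted p under 0.05 in limma. Among 37 dimmer tested probe sets of members, 1 each of Psma7 (p 0.0313), Psmc4 (0.0306), Psmd13 (0.0364) and Psme4 (0.0192) was higher at that threshold. No dimmer probe set of a member was lower at it. Over all 22519 tested probe sets, 1660 had an unadjusted p under 0.05 in either direction.

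Other probe sets of the same genes moved somewhat differently from the brightest ones. Besides the brightest, 37 further probe sets of the tested members passed the filter. Of these 37, 23 had a higher log2 change than the brightest probe set of their gene. By mean signal these were 12 of 13 at 500 or more, 4 of 7 from 100 to under 500 and 7 of 17 under 100, limits chosen after the values were seen. The log2 changes ran from -0.06 to 0.35 in the brightest band and from -0.58 to 0.80 in the dimmest. For Psmc4 the dimmer probe set was at 0.30 ± 0.12 (SE, unadjusted p 0.0306, adjusted p 0.673), against 0.03 for the brightest. For Psmd6 it was at 0.11, against -0.10, so the sign of Psmd6 depended on the probe set. The sign also turned upward for Psma5, Psma6, Psmb3 and some probe sets of Psme4. It turned downward for some probe sets of Psma1, Psma3, Psmb1, Psmd4, Psmd9, Psmd11 and Psmd13.

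**Figure D4:**
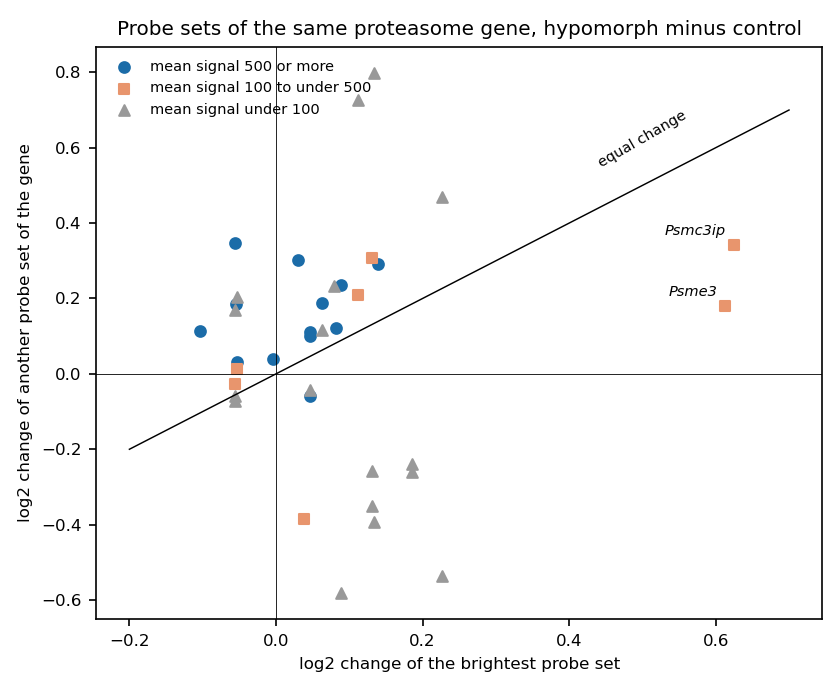
Log2 change, hypomorph minus control, of the brightest probe set of a gene (horizontal axis) and of its other tested probe sets (vertical axis), by mean signal; the diagonal marks equal change. Of the 37 probe sets 23 lie above the diagonal, 12 of them among the 13 with a signal of 500 or more, while the labelled probe sets of Psme3 and Psmc3ip lie below it.

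Other genes of the ubiquitin-proteasome system were read from a list of 34, of which 25 were measured and 24 tested. Limma called none of them, 4 were higher at an unadjusted p under 0.05 (16.7%, against 4.41% of tested genes) and 0 were lower. The groups did not overlap in 13, all with hypomorphs higher (54.2%, against 24.2%), and the median log2 change was 0.10. The 4 were both deubiquitinases that dock on the regulatory particle, an assembly chaperone and a shuttle factor. Usp14 had centred log2 signals of 8.29 and 8.21 in hypomorphs and 7.89 and 7.91 in controls (log2 change 0.35 ± 0.13 SE, unadjusted p 0.0254). Uchl5 had 9.83 and 9.79 in hypomorphs and 9.53 and 9.54 in controls (log2 change 0.28 ± 0.11 SE, unadjusted p 0.0329). Both genes were higher on both hypomorph arrays, by more than the arrays of a group differed. Psmg1, a chaperone of alpha ring assembly, was at 0.29 ± 0.12 (SE, unadjusted p 0.0466) and Ubqln2, which carries ubiquitinated proteins to the proteasome, at 0.28 ± 0.11 (SE, unadjusted p 0.0312). The adjusted p was 0.673 for each of the 4. The genes for control of transcription were at -0.10 for Nfe2l1, -0.00 for Nfe2l2, which encodes NRF2, and 0.02 for Ngly1, the glycanase that acts on NRF1, each with overlapping groups.

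The subunits that replace the catalytic ones in immune cells had log2 changes of 0.05 to 0.13. Psmb8 had centred log2 signals of 10.88 and 10.74 in hypomorphs and 10.65 and 10.86 in controls, with overlap (log2 change 0.05 ± 0.13 SE, adjusted p 0.935). Psmb9 had 9.11 and 9.12 in hypomorphs and 8.99 and 8.98 in controls (log2 change 0.13 ± 0.11 SE, adjusted p 0.796), and Psmb10 was at 0.05 ± 0.12 (SE, adjusted p 0.933). Psmb11, the subunit of cortical thymic epithelium, was dim, with deposited signals of 21.2 and 3.10 in hypomorphs and 8.27 and 5.06 in controls, and was not tested.

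Markers of other cell types were read beside these results, and limma called none of them. All 5 tested B cell, all 8 dendritic cell and MHC class II and all 7 macrophage markers had log2 changes below 0, with medians of -0.65, -0.40 and -0.48. Their summed centred signals were 3510 and 3657 in hypomorphs and 5103 and 4342 in controls for B cells, and 3136 and 3181 in hypomorphs and 4612 and 3931 in controls for the dendritic list. For macrophages the sums were 548 and 331 in hypomorphs and 696 and 557 in controls. All 5 tested granulocyte markers were above 0, with a median of 0.39. The summed signals of that list, which include the untested Elane, overlapped, at 2035 and 3407 in hypomorphs and 675 and 5894 in controls. Thymic epithelial markers had 2 above and 3 below 0, with a median of -0.30, and Foxn1, Krt8 and Aire were too dim to test. The sums of the epithelial list, these dim genes included, were 5503 and 5960 in hypomorphs and 7874 and 7164 in controls. These sums rest mostly on Ctsl (mean signal 6324), where the next brightest gene, Cd83, was at 83.5. The B cell sums likewise rest mostly on Ighm (mean signal 3683), where the next brightest, Cd79b, was at 212. Of the erythroid markers 1, Epor, was tested, at 0.93. The erythroid sums, which include the untested Alas2 and Slc4a1, were 43.6 and 62.4 in hypomorphs and 66.3 and 20.5 in controls. In bulk samples fewer cells of a type and less RNA per cell cannot be told apart, and the part of these values in the proteasome values was not tested.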

How the data were processed

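Total RNA of total thymocytes was hybridised to Affymetrix arrays, 1 per animal. The authors deposited a linear intensity for each probe set, which the submitters' processing notes credit to GCOS, the Affymetrix software. No source used here gives its version, scaling or detection calls. Of 45101 probe sets, 64 Affymetrix controls were left out, and 34945 carried 1 symbol in the platform annotation, 932 several and 9160 none. A pseudocount of 2.29, the 10th percentile of signals, was added before taking log2, so fold changes understate those of dim genes. The 22519 probe sets with a mean signal at or above the median of means were tested, and each array was centred on its median over them, because centring on all probe sets leaves a shift of 0.21 among the tested genes. The contrast of hypomorphs with controls was fitted by limma 3.58.1 under R 4.3.3 (variance trend, two-sided, no covariates, Benjamini-Hochberg over the 22519, threshold 0.05); 7 probe sets were called. P-values test against a change of 0, and with 2 arrays per group they rest on the variance shared across probe sets; an exact permutation test cannot go below 0.333. The number of arrays limits the precision. The labels call the animals independent.

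In 20 simulations 200 of 22519 probe sets were changed. Limma called 4.10% of those changed 1.5-fold, 44.7% of those changed 2-fold and 91.9% of those changed 4-fold, while 4.82% of its calls were false. The changed probe sets were drawn at random from all tested ones, so these shares are not specific to the members. The median signal of the members was 1118, against 202 for all tested genes. Their median interval half-width was 0.27, against 0.37 for all tested genes. Members and lists were chosen with earlier results of these data known. Genes named are any called members, the 8 with the smallest p, the extremes of each class, the catalytic subunits, the activators, and from the other ubiquitin-proteasome genes the 4 with the smallest p and the immune and thymus-specific subunits; the other genes named were added after their values were seen. Alternatives were quantile normalization, cyclic loess, centring on all probe sets, no centring, other pseudocounts and filters, no variance trend, a replicate block, each array left out, and the mean of a gene's probe sets; using only plain _at probe sets was added after seeing the data. Figures were drawn with matplotlib 3.10.9.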

Additional observations from a re-analysis of the deposited data

How the results depend on the processing

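In every alternative run, limma called 0 of the tested proteasome members and 0 of the other ubiquitin-proteasome genes. The median log2 change of the members was 0.12, and 0.0732 with quantile normalization, 0.0928 with cyclic loess, 0.30 centred on all probe sets, 0.62 without centring, 0.14 with the pseudocount at the 25th percentile and 0.15 with the brightest plain _at probe set per gene. It was 0.0858 to 0.140 with each array left out. Over all genes the same median was 0.02 with quantile normalization, 0.02 with cyclic loess, 0.21 centred on all probe sets and 0.54 without centring. Members higher at an unadjusted p under 0.05 in limma numbered 2 of 38 (5.26%, against 4.41% of tested genes). They numbered 18 centred on all probe sets (47.4%, against 18.2%) and 16 without centring (42.1%, against 19.3%). With the mean of a gene's probe sets they numbered 4 of 38 (10.5%, against 4.13%). Among the 32 members that have a tested plain _at probe set they numbered 5 (15.6%, against 4.30%). Core minus regulatory particle was -0.0031, turned to 0.0180 with quantile normalization and 0.0144 with cyclic loess, and was -0.0382 with plain _at probe sets, -0.0450 with the mean of probe sets, and -0.0557 to -0.0091 with an array left out. Of 7 probe sets called over all genes, there were 4 with quantile normalization, 4 with cyclic loess, 12 centred on all probe sets, 79 without centring, 4 without the filter, 1 with the filter at the 75th percentile, 0 without the variance trend (at 1510 with an unadjusted p under 0.05) and 2 to 374 with an array left out (374 without hypomorph replicate 1, 87 without hypomorph replicate 2, 2 without control replicate 1 and 3 without control replicate 2).

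Signs of small changes turned. Psmb10 was at -0.0150 with quantile normalization and -0.0021 with cyclic loess. Centred on all probe sets, Psma5 was at 0.12, Psmb3 at 0.17, Psmd6 at 0.0705, Psme1 at 0.15 and Psme4 at 0.12, and without centring these were at 0.45, 0.50, 0.40, 0.48 and 0.45. Psmb3 was at 0.0147 with the pseudocount at the 25th percentile. With an array left out the range was -0.16 to 0.0470 for Psma5, -0.10 to 0.0944 for Psmb3, -0.15 to 0.21 for Psmc4, -0.32 to 0.12 for Psmd6, -0.0112 to 0.46 for Psmd9, -0.12 to 0.0676 for Psme1, -0.16 to 0.04997 for Psme4, -0.0546 to 0.16 for Psmb8 and -0.0118 to 0.12 for Psmb10. Psme3 stayed between 0.47 and 1.12 and Psmc3ip between 0.56 and 1.13 over the alternatives fitted for single genes. These did not include the mean of a gene's probe sets. The other tested probe sets of Psme3 and Psmc3ip were lower than these ranges, at 0.18 and 0.34. The log2 change of Atg16l1 stayed between -1.82 and -1.25 over all alternatives fitted for it. Its call was lost without centring (-1.25, adjusted p 0.0988), with the filter at the 75th percentile (-1.75, 0.0534), without the variance trend (-1.75, 0.248), without control replicate 1 (-1.80, 0.441) and without control replicate 2 (-1.69, 0.452). With the replicate number as a block 6 probe sets were called, none of them a member, and the median of the members was 0.12; the deviations of same-numbered arrays correlated at 0.09, so the numbers were not taken as pairs, and the replicate block changed no other count by over 1.5 times.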

Other observations

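Psmc3ip and Psme3, the members with the highest changes, lie on chromosome 11 with 13 annotated genes between them in the GRCm38.p6 gene order. Of these 13, 6 were tested, with log2 changes from -0.45 to 0.22 and a median of -0.0011, and 0 had an unadjusted p under 0.05. Including 10 tested genes on each side, 26 neighbours had a median of -0.00085, with 2 higher and 1 lower at an unadjusted p under 0.05. The neighbourhood was looked at after the values were seen.

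Members whose brightest probe set has a plain _at suffix (19 genes) had a median log2 change of 0.18, and those with an _a_at, _s_at or _x_at suffix, which marks probes shared by several transcripts or sequences (19 genes), one of 0.08. The median of the members' mean signals was 682 among the first and 1413 among the second. Over all tested genes the same medians of the log2 change were 0.03 (7430 genes) and 0.05 (2812 genes), in the other order. In 14 of 20 members with at least a pair of tested probe sets the next brightest had a higher change than the brightest, against 2314 of 4868 tested genes (47.5%). This split was made after the values were seen, and a cause was not tested.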
